A study of Mus musculus with 24 samples.

Results

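The CpGs described here lie in the gene deserts of the mouse genome. A cytosine of the methylation table was taken as far intergenic if it lay outside every gene of the GENCODE M21 annotation and more than 50000 bases from the nearest gene boundary. Of 762182 cytosines in the table, 25684 met this rule, of which 25683 were in CpG context and were analysed. They stood at 24526 CpG sites and made up 3.37% of the table. The table came from reduced representation bisulfite sequencing (RRBS), which reads methylation mainly in CpG-containing restriction fragments, of micro-dissected hippocampal dentate gyrus from female C57BL/6JRj mice. Young STD mice (n = 5) were 1.5 months old and in standard cages, Aged STD mice (n = 7) were 14 months old and in standard cages, and Aged ENR mice (n = 7) were 14 months old and had been kept in an enriched environment. The study reports that the enriched aged mice had lived in it for over a year. Young mice in the enriched environment were not analysed here. Each value is one mouse, and a dentate gyrus holds granule neurons together with glia and other cells, so altered methylation within a cell type and altered cell shares cannot be told apart.

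In mammals, most CpGs outside promoters are methylated. Dnmt1 copies this methylation at each cell division, Dnmt3a and Dnmt3b set it on new sites, and Tet enzymes oxidise it on the way to removal. Long intergenic stretches are rich in remnants of transposable elements, which are usually held methylated. Unmethylated or partly methylated stretches far from genes are often distal regulatory elements, where bound proteins keep methylation low, or CpG islands without an annotated gene.

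Neighbouring cytosines up to 100 bases apart were joined into regions of at least 3 cytosines, which gave 3067 far regions. Of the 16 regions named by a fixed rule, labelled R1 to R16, a few are shown here. They are forward-strand sequences of GRCm38, the build of mm10, written 5′ to 3′ with capitals marking the CpG sites that were measured. R2 is shown as a CpG-dense stretch with little methylation. It lay at chr11:84642490-84642733, 74.2 kb from 1700109G15Rik and 107 kb from Lhx1os, both lincRNA genes. R7 (chr2:45539000-45539182), R8 (chr17:44440584-44440776) and R9 (chr9:50421982-50422108) are shown because their mean was furthest below Young STD in Aged STD. R11 (chr15:87433876-87434101) and R12 (chr6:79306990-79307065) are shown as regions with a higher mean in Aged STD.
R2: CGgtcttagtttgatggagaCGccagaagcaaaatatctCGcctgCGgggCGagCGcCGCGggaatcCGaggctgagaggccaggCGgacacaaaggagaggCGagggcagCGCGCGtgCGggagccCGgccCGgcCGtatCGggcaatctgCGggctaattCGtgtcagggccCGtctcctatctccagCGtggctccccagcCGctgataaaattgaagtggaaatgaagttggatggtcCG
R7: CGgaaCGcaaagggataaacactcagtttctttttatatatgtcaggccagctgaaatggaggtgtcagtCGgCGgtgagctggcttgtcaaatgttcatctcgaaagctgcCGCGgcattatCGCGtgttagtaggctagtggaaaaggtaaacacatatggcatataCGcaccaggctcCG
R8: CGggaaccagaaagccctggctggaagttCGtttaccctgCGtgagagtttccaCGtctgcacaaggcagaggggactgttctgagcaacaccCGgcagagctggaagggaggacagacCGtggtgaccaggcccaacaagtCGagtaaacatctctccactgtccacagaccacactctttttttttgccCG
R9: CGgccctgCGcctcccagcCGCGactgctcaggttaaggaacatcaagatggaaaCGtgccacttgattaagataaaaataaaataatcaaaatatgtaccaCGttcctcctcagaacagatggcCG
R11: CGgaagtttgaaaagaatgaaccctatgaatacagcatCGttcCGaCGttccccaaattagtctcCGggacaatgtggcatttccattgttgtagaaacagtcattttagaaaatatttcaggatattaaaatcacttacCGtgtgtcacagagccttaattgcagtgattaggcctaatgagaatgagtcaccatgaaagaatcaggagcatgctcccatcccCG
R12: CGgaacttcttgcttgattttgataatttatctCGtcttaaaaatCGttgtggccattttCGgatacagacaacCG

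R2 held 25 measured sites in 244 bases and had a GC content of 62.7%. R7 and R9 had fewer sites and a GC content of 48.6% and 47.2%. None of the sequences shown lay in a gene of the RefSeq annotation.

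Far intergenic CpGs were sparse and mostly methylated. Far sequence made up 14.0% of the known bases of the genome (371 megabases) and 9.85% of its CpG sites, with 5.81 CpGs per kb against 8.26 per kb in the whole genome. The table held 3.37% of its cytosines there, RRBS being a method that favours CpG-dense fragments. The median distance to a gene was 84.0 kb, with quartiles of 63.4 and 122 kb and a maximum of 613 kb. The nearest gene was most often a processed pseudogene (34.8% of the CpGs), a lincRNA (20.3%) or a protein-coding gene (19.7%). Of the CpGs of the X chromosome 10.1% were far from genes, against 3.18% of autosomal CpGs. RefSeq, a second annotation, placed a gene over 2090 of the far CpGs (8.14%), and 1705 of these were in lncRNA genes.

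The mean level of far CpGs in Young STD was 74.2% and the median 89.3%, against a mean of 57.4% at the 138115 CpGs nearer to genes but outside them, 53.9% in introns, 46.9% in exons and 7.95% in promoters. Just inside the distance limit, the 573 CpGs between 50 and 51 kb from a gene had a mean of 67.2% in Young STD, and the 539 CpGs in the kilobase just outside it had 70.5%. In mean over all far CpGs, Aged STD stood at 71.7% and Aged ENR at 73.0%.

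Sequence marked as repetitive (lower case) in the GRCm38 reference split the far CpGs by level, as it did the nearer intergenic ones. This mark covered 44.2% of the far CpGs, against 25% of the nearer intergenic CpGs and 14.6% of intronic ones. The repeat families behind the mark were not analysed here. The 11357 repeat CpGs had a mean of 88.7% in Young STD, 87.9% in Aged STD and 88.8% in Aged ENR. The 14326 non-repeat CpGs had a mean of 62.7% in Young STD, 58.9% in Aged STD and 60.5% in Aged ENR. Among repeat CpGs in Young STD, 48.3% were at 95% or more, 14.8% lay between 20% and 80%, and 0.731% were under 5%. Among non-repeat CpGs, 23.1% were at 95% or more, 32.5% lay between 20% and 80%, and 8.96% were under 5%. Far repeats thus held few unmethylated CpGs and a smaller share of intermediate ones, and the unmethylated CpGs of gene deserts were mostly outside repeats. The same split was present in nearer intergenic CpGs, with Young STD means of 83.1% in repeat and 48.8% in non-repeat CpGs. Of these nearer CpGs, 2.9% and 22.2% were under 5%.

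**Figure D1:**
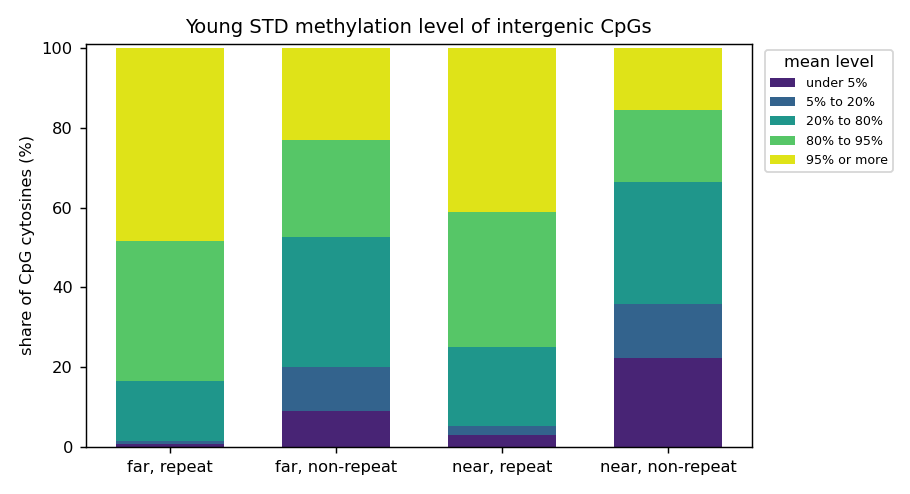
Stacked bars give the share of CpG cytosines (y axis, %) in each class of mean Young STD methylation, for far and nearer intergenic CpGs inside and outside sequence marked as repetitive. The far repeat bar is dominated by CpGs at 80% or more, and the far non-repeat bar holds 32.5% of its CpGs between 20% and 80%.

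To compare mice on the same CpGs, the 2074 far CpGs with a value in all 19 mice were averaged in each mouse. These were 8.08% of the far CpGs and had a lower level than the rest, with a mean of 56.8% in Young STD. The far mean was 55.4%, 55.6%, 55.1%, 59.1% and 58.6% in the 5 Young STD mice. In the 7 Aged STD mice it had a lowest value of 49.9%, a median of 54.4% and a highest of 59.5%. In the 7 Aged ENR mice these were 51.3%, 54.5% and 58.2%. The aged groups overlapped with the young one, and 6 of the 7 Aged STD mice and 6 of the 7 Aged ENR mice were below every Young STD mouse. The 3 young mice of library series 27 were at 55.1% to 55.6%, and the 2 of series 37 at 58.6% and 59.1%. Aged ENR 5, which is among the mice counted as below, was also at 55.1% when rounded.

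Far CpGs were above nearer intergenic CpGs in each of the 19 mice. The far mean exceeded the near mean by 16.4 ± 0.299 points in the 5 Young STD mice, by 16.2 ± 0.751 in the 7 Aged STD mice and by 15.9 ± 0.448 in the 7 Aged ENR mice (mean and SD). The offset was present inside repeats, at 10.5 points ± 0.653 in Young STD, and outside them, at 11.9 points ± 0.314 (SD, n = 5 for both). The lowest offset of any mouse was 15.1 points and the highest 17.3, so the 3 groups overlapped in it. Outside repeats, the offset was lower in Aged ENR (9.26 to 11.4 points) than in any Young STD mouse (11.6 to 12.4), with a mean difference of -1.28 points (SE 0.299), or -1.05 without Aged ENR 4. Inside repeats, where its mean was 0.622 points higher in Aged ENR, the groups overlapped. In Aged STD the offset outside repeats was below every Young STD mouse in 6 of 7 mice and above every one in the other, with a mean difference of -0.994 points (SE 0.556) that was -0.0885 without the 3 Aged STD mice of lowest coverage.

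**Figure D2:**
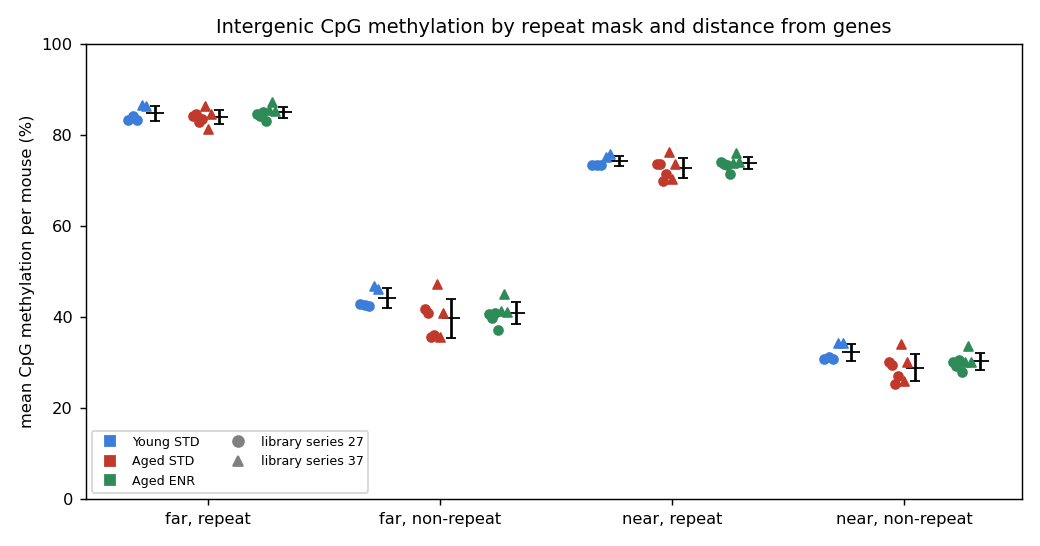
Each point is the mean methylation of one mouse (y axis, %) over CpGs measured in all 19 mice, by distance from genes and repeat mark, with circles and triangles for the library series, and black bars giving the group mean and SD. Far repeat CpGs lie between 81.4% and 87.2% in all mice, and far non-repeat CpGs between 35.7% and 47.3%.

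The mean level was also higher at greater distance from genes. In Young STD, non-repeat CpGs had a mean of 40.9% ± 2.20 at 50 to 75 kb, 45.9% ± 2.11 at 75 to 100 kb, 47.0% ± 2.47 at 100 to 200 kb and 52.5% ± 1.79 beyond 200 kb (SD, n = 5 for each). The 75 to 100 kb and 100 to 200 kb means did not differ beyond their spread. Repeat CpGs went from 82.4% ± 1.62 to 88.7% ± 1.33 between the nearest and the farthest class (SD, n = 5). The farthest class rested on 74 non-repeat and 58 repeat CpGs. Aged STD and Aged ENR showed the same order of the nearest and farthest classes, from 36.5% to 48.8% and from 37.5% to 50.7% outside repeats.

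**Figure D3:**
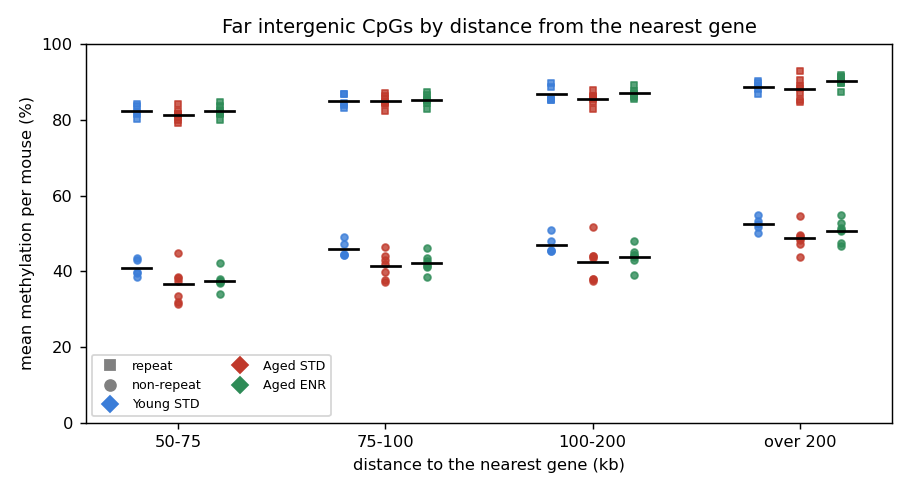
Mean methylation per mouse (y axis, %) of far CpGs in 4 classes of distance to the nearest gene (x axis, kb), with squares for repeat and circles for non-repeat CpGs, and black lines for group means. The Young STD mean outside repeats goes from 40.9% to 52.5% between the nearest and the farthest class.

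On the X chromosome, where one copy is inactive in female cells, far non-repeat CpGs had a higher level than on the autosomes. In Young STD they had a mean of 63.2% ± 3.55 over 75 CpGs of X and 43.1% ± 2.03 over 1355 autosomal CpGs (SD, n = 5). The X minus autosome difference was 20.1 points in far and 22.8 points in nearer intergenic CpGs of Young STD. In Aged STD it was 21.4 ± 2.14 in far and 20.5 ± 2.26 in nearer CpGs, and in Aged ENR 23.5 ± 3.33 and 21.5 ± 2.59 (mean and SD). Far and near differed by less than these spreads in the aged groups, and the difference was not tested.

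The 3067 far regions held 54.9% of the far CpG cytosines. In Young STD, 353 regions were under 20%, 713 between 20% and 80%, and 2001 over 80%. Repeat marking covered on average 4.76% of a region's cytosines in the first class, 21.5% in the second and 64.0% in the third. RefSeq genes overlapped 17.8% of the low regions and 5.05% of the high ones. Intermediate regions varied most between mice, with a median SD over Young STD mice of 12.9 points, against 6.22 in low and 5.36 in high regions.

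Short motifs were counted in 300 bases around the centre of each region, on both strands, as a description of the sequence. The core of the motif of CTCF, a protein that organises chromatin loops, with its degenerate positions taken as any base, was found in 4.25% of low, 0.842% of intermediate and 0.700% of high far regions. In nearer intergenic regions the shares were 5.84%, 1.67% and 1.23%, and over all regions 1.14% far and 2.50% near. The AP-1 motif (TGANTCA), recognised by Fos and Jun, was found in 9.07%, 9.82% and 5.6% of the low, intermediate and high far regions, and in 7.7%, 9.31% and 5.99% of the nearer ones. In far regions outside repeats the shares were 9.25%, 10.8% and 9.96%, so the lower share in high regions was not seen there. The motif CAGATGG, an E-box of the kind bound by neuronal bHLH factors such as Neurod1, was found in 9.07%, 7.29% and 4.60% of far and 9.14%, 8.01% and 4.80% of nearer regions. The last letters of R9 above hold it.

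The far regions with the most measured cytosines were unmethylated islands. R1 held 40 cytosines at chr9:67633015-67633586, 66.6 kb from the pseudogene Gm47110 and 73.3 kb from Tln2, the gene of the cytoskeletal protein talin 2, in GENCODE. RefSeq, with a longer Tln2, placed R1 inside that gene. R1 was at 1.13%, 2.44%, 0%, 1.77% and 0.426% in the Young STD mice, at a median of 0.493% in Aged STD and of 0.139% in Aged ENR. R2, whose sequence is above, held 32 cytosines and was at 0%, 1.36%, 0.843%, 0.168% and 0% in Young STD, with medians of 1.23% in Aged STD and 0.899% in Aged ENR. R3 held 31 cytosines at chr4:124178603-124178911, 98.9 kb from Gm37667 and 242 kb from Rragc, the gene of a Rag GTPase of the nutrient-sensing mTORC1 pathway. It lay between 2.56% and 3.16% in Young STD, 0% and 5% in Aged STD, and 0% and 10.9% in Aged ENR. All 3 islands were thus at or under 10.9% in every mouse.

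The far regions at the greatest distance from genes were the opposite. R4 on chromosome 1 lay 453 kb from the nearer of its neighbouring genes, R5 on chromosome 6 lay 449 kb and R6 on chromosome 4 lay 437 kb from theirs. In all 3, every measured cytosine was in repeat sequence. Their means in Young STD were 91.8% ± 6.99 (SD, n = 4), 95.3% ± 5.41 (SD, n = 5) and 79.7% ± 5.36 (SD, n = 4). The Aged STD means of 90.3%, 94.5% and 84.4% and the Aged ENR means of 93.6%, 94.9% and 81.2% were all within 1 SD of the Young STD means.

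The comparison of Aged STD with Young STD asked what age did to these CpGs under standard housing. Their mean was lower in Aged STD (53.5% ± 3.41 SD, n = 7) than in Young STD (56.8% ± 1.92 SD, n = 5), by a difference of -3.31 points with an SE of 1.55. The difference was -0.837 points in repeat CpGs and -4.43 points in non-repeat CpGs (39.7% ± 4.29 against 44.2% ± 2.08). In nearer intergenic CpGs it was -3.08 points and in intronic CpGs -4.77. Within library series 27 (3 young and 4 aged mice) the far difference was -2.78 and within series 37 (2 and 3) -4.26. The repeat difference was 0.183 within series 27 and -2.39 within series 37, so its direction was not stable. Where CpGs were sorted by their level in the third group, Aged ENR, the 471 intermediate far CpGs stood at 44.0% ± 7.49 in Aged STD and 52.5% ± 3.58 in Young STD, and the 910 CpGs over 80% at 92.6% in both. The 693 far CpGs under 20% stood at 8.49% ± 3.84 in Aged STD and 12.7% ± 1.97 in Young STD.

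The age difference moved with coverage. Far CpGs with a value made up 77.6% to 96.5% of all far CpGs in Young STD, 47.2% to 94.5% in Aged STD and 62.8% to 89.4% in Aged ENR. Aged STD 3, 4 and 6 and Aged ENR 4 were under 65%, and their far means of 50.3%, 50.8%, 49.9% and 51.3% were the lowest of all mice. Without these 4 mice the far difference was -0.969, the non-repeat difference -1.48, the repeat difference 0.168 and the difference at intermediate CpGs -3.08. At the far CpGs under 20% in Aged ENR it was -1.95. The nearer intergenic difference was then -1.12 and the intronic one -2.24. Another set of far CpGs was intermediate by its mean in Young STD, not in Aged ENR. Values of exactly 0% or 100% at these CpGs made up 20.7% ± 10.2 of values in Young STD (mean and SD over mice). In Aged STD they made up 46.1% ± 18.3 and in Aged ENR 41.4% ± 15.2. Choosing the CpGs by Young STD can itself lower the share in that group, so the gap between young and aged mice cannot be read as unbiased. Within library series 27 the Aged STD minus Young STD difference in this share was 43.1 points, and within series 37 it was 0.602 (37.1 and -2.22 for Aged ENR minus Young STD). The part of read number in this, which the table does not give, was not tested.

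**Figure D4:**
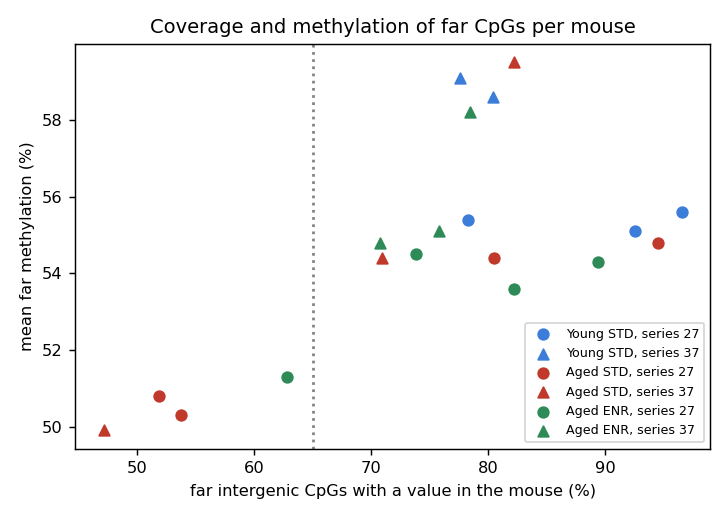
Each point is a mouse, with the share of far CpGs that had a value on the x axis (%) and its mean far methylation over CpGs measured in all mice on the y axis (%, axis not starting at 0). The dotted line marks 65%, and the 4 mice to its left have the 4 lowest means, 49.9% to 51.3%.

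No single far CpG passed the test for age. With limma fitted to all CpGs of the table, where a call needed a difference over 25 points and an adjusted p under 0.05, 0 of 23021 far CpGs were called, against 0% of all CpGs tested, and the smallest adjusted p of a far CpG was 0.591. The fit without a variance trend called 3 (0.013%, against 0.0227% of all CpGs). At an unadjusted p under 0.05 there were 1059 (4.60%), against 4.42% of all CpGs. A difference over 25 points in either direction, with no test, was seen at 2424 far CpGs (10.5%, against 9.35% of all CpGs), of which 1805 were lower in Aged STD (7.19% of all CpGs were). Without the 4 mice of low coverage this number was 1593 of the 19297 far CpGs then tested (8.26%, against 8% of all CpGs), of which 947 were lower. These were 59.4% of the far CpGs over 25 points apart, against 62.1% in the whole table. Among the 2796 far CpGs with a value in every mouse compared, the groups did not overlap at 23 (0.823%, against 0.432% of all CpGs), with 18 lower in Aged STD. The shares at an unadjusted p and over 25 points were close to those of the whole table, and the share without overlap rested on few CpGs. The whole table includes promoter CpGs, of which 2.57% and 4.24% were so counted. Both far shares were below those of nearer intergenic (5.25% and 11.8%), exonic (5.02% and 12%) and intronic CpGs (6.56% and 14.7%).

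Regions gave the same outcome. None of 2913 far regions was called by limma (0% of all regions), the smallest adjusted p was 0.410, and 174 (5.97%) had an unadjusted p under 0.05 against 5.98% of all regions. Over 25 points apart were 70 far regions (2.40%, against 2.57% of all regions), 64 of them lower in Aged STD (2.28% of all regions were). Without the 4 mice of low coverage they were 27 of 2474 (1.09%, against 1.52% of all regions), with 21 lower (77.8%, against 69.7% in the whole table). At an unadjusted p under 0.05 the split was more even, with 98 of the 174 far regions lower (56.3%, against 71.5% in the whole table). Without the 4 mice it was 43 of 104 (41.3%, against 45.8%).

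The named regions show what such differences look like in single mice. They were chosen for the size of this difference, so their values are a description. R8 lay 55.2 kb from Runx2, the gene of a transcription factor of bone formation. It was at 52.5%, 61.2%, 50.4%, 79.1% and 71.7% in the Young STD mice, and had a lowest value of 17.9%, a median of 31.7% and a highest of 46.5% in Aged STD. No Aged STD mouse reached the Young STD range. In Aged ENR it ranged from 23.0% to 73.9%, over both of these ranges.

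R7, between a lincRNA gene and a pseudogene, was at 79.2%, 33.7%, 38.0%, 50.4% and 68.0% in Young STD, with a lowest value of 2.81%, a median of 12.1% and a highest of 66.1% in Aged STD. Its Aged ENR values had a lowest of 0%, a median of 22.8% and a highest of 37%. Aged STD overlapped with Young STD through 2 mice, at 40.3% and 66.1%. Without the mice of low coverage, its Aged STD minus Young STD difference went from -31.2 to -20 points. R9 was at 21.4%, 7.57%, 19.2%, 26.6% and 75.2% in Young STD. Its median was 0% in Aged STD and 1.34% in Aged ENR, with single mice at 23.8% and 22.5%. The mean difference of R9 rested in part on Young STD 5, since it was -26.1 points with this mouse and -14.8 without it.

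In the other direction, R12 was at 76.5%, 79.7%, 77.0%, 82.5% and 72.7% in Young STD, with medians of 92.6% in Aged STD and 96.1% in Aged ENR. Without the mice of low coverage its Aged STD minus Young STD difference went from 12.7 to 7.41. R11, 110 kb from Fam19a5, the gene of a secreted brain protein, was at 37%, 50.9%, 55.5%, 34.9% and 64.1% in Young STD and had medians of 68.8% in Aged STD and 52.7% in Aged ENR. R10 lay in the RefSeq lncRNA gene Gm36743, between Bbs9, of the primary cilium's BBSome, and Bmper, a modulator of BMP signalling. Its mean was 39.1% ± 11.2 (SD, n = 5) in Young STD and 63.3% ± 26.5 (SD, n = 7) in Aged STD, where 4 mice were between 40.7% and 46.2% and 3 between 83.8% and 100%.

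**Figure D5:**
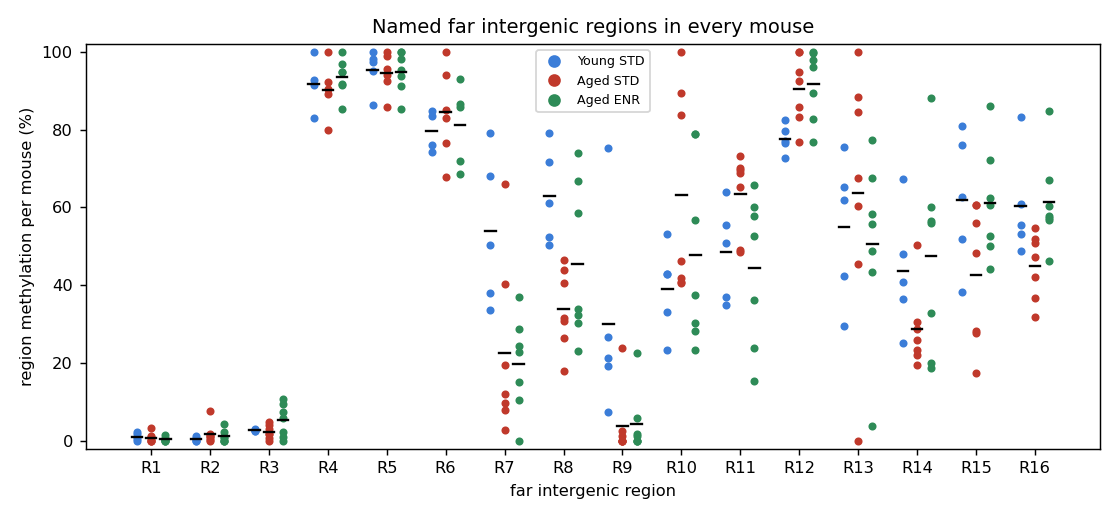
Methylation of each named far region (x axis) in every mouse (points, y axis in %), with black lines for group means. R1 to R3 lie at or under 10.9% in all mice, R4 to R6 are high, and R7 to R16 were chosen by the size of their differences and spread widely within each group.

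The comparison of Aged ENR with Aged STD asked about housing at one age. The far mean was 1.09 points higher in Aged ENR (54.5% ± 2.02 SD) than in Aged STD (53.5% ± 3.41 SD), with an SE of 1.50, so the difference was smaller than the spread between mice. It was 1.02 points in repeat and 1.12 points in non-repeat CpGs. Without the 4 mice of low coverage it turned to -0.722, with -1.2 in non-repeat CpGs and 0.337 in repeat CpGs. Limma called 0 of 22511 far CpGs (0% of all CpGs), and the smallest adjusted p was 0.769. The fit without a variance trend called 1 (0.00444%, against 0.0049% of all CpGs). There were 581 far CpGs (2.58%) with an unadjusted p under 0.05, against 2.25% of all CpGs. Differences over 25 points were seen at 1946 far CpGs (8.64%, against 7.15%), of which 1263 were higher in Aged ENR (4.53% of all CpGs were). Without the 4 mice of low coverage they were 1450 of 18404 (7.88%, against 7.16% of all CpGs), with 750 higher and 700 lower (48.3% lower, against 50.8% in the whole table). The 2 groups overlapped at all of the 2492 far CpGs measured in each of their mice (0 without overlap, against 0.0162% of all CpGs).

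None of 2910 far regions was called (0% of all regions), 94 (3.23%) had an unadjusted p under 0.05, against 3.82%, and 35 differed by over 25 points (1.20%, against 1.53%), 23 of them higher in Aged ENR (1.06% of all regions were). Without the mice of low coverage, 26 of 2411 far regions were over 25 points apart (1.08%, against 1.21%), with 10 higher and 16 lower in Aged ENR. The split turned in the whole table too, with 338 regions higher and 382 lower. R14, on X, lay in the RefSeq lncRNA gene Gm46674 and 50.1 kb from Efnb1, the gene of the axon-guidance ligand ephrin B1. It had a median of 26.0% in Aged STD (19.6% to 50.3%) and 56.1% in Aged ENR (18.7% to 88.0%). R16 on chromosome 12 had a median of 47.3% in Aged STD (31.8% to 54.6%) and 57.8% in Aged ENR (46.2% to 84.9%). R15 on chromosome 15, in the RefSeq lncRNA gene Gm35831, had 48.4% (17.5% to 60.7%) and 60.7% (44.1% to 86.0%). The groups overlapped in all 3. In R11, R10 and R13, the last of which lay 50.8 kb from Bod1, a gene of chromosome biorientation in mitosis, the Aged ENR minus Aged STD differences were -19, -15.5 and -13.1 points. R13 ranged from 0% to 100% in Aged STD and from 3.81% to 77.3% in Aged ENR. Each lowest value came from a single mouse, with the others at 45.5% or more and 43.4% or more. Within library series 27 and 37 the differences were -28.9 and -5.77 in R11, -19 and -10.9 in R10, and -22.4 and -0.77 in R13.

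Aged ENR was also compared with Young STD, with the same young mice as in the age comparison above. The far difference was -2.22 points (SE 1.15), and -1.69 without Aged ENR 4. It was 0.183 points in repeat CpGs and -3.31 points in non-repeat CpGs. Limma called 0 of 23167 far CpGs (0% of all CpGs), with a smallest adjusted p of 0.498, while 4 were called without a variance trend (0.0173%, against 0.0176% of all CpGs) and 1007 (4.35%) had an unadjusted p under 0.05, against 3.95% of all CpGs. Differences over 25 points were seen at 1855 (8.01%, against 7.60%), of which 1192 were lower in Aged ENR (5.21% of all CpGs were). The groups did not overlap at 16 of 4514 far CpGs (0.354%, against 0.323%). None of 2935 far regions was called (0% of all regions), and 159 (5.42%) had an unadjusted p under 0.05, against 5.42% of all regions. Over 25 points apart were 49 far regions (1.67%, against 1.85%), 39 of them lower in Aged ENR (1.49% of all regions were).

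The CpGs called by limma without a variance trend were few, and are named here after their values were seen. Neighbouring cytosines on chromosome 2, at chr2:45230435 and chr2:45230476 in a stretch between Gm28643 and Vis1, were among them. The first was called in both comparisons with the young mice, with values from 90.6% to 100% in 3 Young STD mice, 0% to 26.7% in 5 Aged STD mice and 0% in each of 3 Aged ENR mice. The second, called only for Aged ENR minus Young STD, was at 94.1% to 100% in the Young STD mice and 0% in the Aged ENR mice, but spread from 21.4% to 100% in Aged STD. The same comparison called chr1:19968787, 89 kb from the kidney and liver cilium gene Pkhd1 (Young STD median 64.7%, Aged ENR median 0%), and chr19:54558215 (33.3% and 0%).

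Aged STD minus Young STD also called chr11:24282545, with medians of 88.5% in Young STD and 0% in Aged STD, and chr6:106878076, 78 kb from Crbn, which encodes the ubiquitin ligase adaptor cereblon. The last was at 39.1% to 57.9% in 3 Young STD mice and at 100% in each of 5 Aged STD mice. Aged ENR minus Aged STD called chr4:31627706, with 4 mice in each group, at a median of 95.5% in Aged STD and 4.55% in Aged ENR. In the group not compared, values spread from 0% to 100% at this CpG (Young STD), at chr1:19968787 (Aged STD) and at chr6:106878076 (Aged ENR). All the CpGs called in this way but the one on chromosome 6 were outside repeats, and most had values in only part of the mice. None passed limma with the variance trend.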

How the data were processed

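Libraries were made with the Premium RRBS Kit from the dentate gyrus of single mice. Per the submitters' processing notes, reads were handled with Trim Galore 0.4.0, cutadapt 1.8.1, Bismark 0.16.1 and methylKit 1.5.2 on mm10. The authors set a minimum of 10 reads per cytosine and mouse. The deposited table gives the percent of methylated reads per cytosine and mouse, without read numbers. The depth behind a percent is therefore unknown, and no test on reads or confidence interval was made. No molecular identifiers are described. Bisulfite does not separate methylation from hydroxymethylation.

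Positions were compared with GRCm38 and the GENCODE M21 annotation, and repeat marking, base composition and sequences were read from the GRCm38.p6 RefSeq genome. Promoters reached 1000 bases to either side of transcription starts. Mouse means used CpGs measured in all 19 mice. CpGs and regions of the whole table with values in at least 3 mice of each group were tested with limma 3.58.1 in R 4.3.3 on the percent scale, with a variance trend, two-sided, over the mice of both groups, with Benjamini-Hochberg adjustment over all features, and the code was tested on simulated data. No p-value was computed for a mean over the far CpGs. Groups and library series came from the labels.

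Regions were named if they had at least 5 cytosines and were the 3 with most cytosines, the 3 farthest from genes, the 3 with most cytosines among those under 20% in Young STD, or, among regions measured in all mice, the 3 largest differences in each direction with age and with housing. The members, the lists and this rule were chosen with earlier results of these data known. Per the study's methods, enriched mice shared an enclosure and standard mice were kept several to a cage. Which of these mice lived together is not given in the sources used here, so p-values may not cover the spread between cages. Alternatives changed the CpGs averaged, the distance minimum, the joining of CpGs, the scale, the variance model, the covariates (library series, replicate number, coverage index) and the mice included.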

Additional observations from a re-analysis of the deposited data

Results flagged for a closer look

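Among 72 sets of values (named regions and mouse means, each within a group), 6 values came from a mouse further from the others of its group than Dixon's limit allows. For normally distributed values, chance gives about 1 in 20 such sets. Values near 0%, as in R1, R2 and R9, and regions chosen for large differences may not keep this rate. In R9, Young STD replicate 5 stood at 75.2% with the other 4 mice between 7.57% and 26.6%. Aged STD replicate 5 stood at 23.8% in R9 with the others between 0% and 2.50%, and Aged ENR replicate 6 at 22.5% with the others between 0% and 5.83%. R14 was at 50.3% in Aged STD replicate 5 and between 19.6% and 30.6% in the other Aged STD mice. In the unmethylated islands, R1 was at 3.33% in Aged STD replicate 1 (others 0% to 1.41%) and R2 at 7.77% in Aged STD replicate 7 (others 0% to 1.82%).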

How the results depend on the processing

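Other settings gave 393 values, many of them counts of limma calls that stayed at 0. Of the 393, 369 moved by less than the spread between mice or, for counts, stayed within 1.5 times. These include the far difference of Aged STD minus Young STD, which went from -3.31 to -0.969 without the 4 mice of low coverage. Among these, the far difference of Aged ENR minus Aged STD turned from 1.09 to -0.722 without the 4 mice of low coverage and to -0.713 with a covariate for which CpGs a mouse had measured (which took the other far differences from -3.31 to -1.06 and from -2.22 to -1.21), and the far minus near difference of Aged STD minus Young STD turned from -0.236 to 0.153 without these mice. Averaging all far CpGs measured in each mouse, in place of those measured in all mice, gave far differences of -7.38 points for Aged STD minus Young STD and 5.02 for Aged ENR minus Aged STD, which were -0.721 and -0.54 without the 4 mice of low coverage. It gave far minus near differences of 1.65 and, for Aged ENR minus Young STD, 1.25. Within level classes (under 20%, 20% to 80%, over 80%), the far minus near difference was -1.76, -1.31 and 0.693 for Aged STD minus Young STD, and -1.86, -1.89 and 0.240 for Aged ENR minus Young STD. Limma without a variance trend called 3, 1 and 4 far CpGs (0.013%, 0.00444% and 0.0173%, against 0.0227%, 0.0049% and 0.0176% of all CpGs) for Aged STD minus Young STD, Aged ENR minus Aged STD and Aged ENR minus Young STD. In the same order, requiring a value in all mice compared left 153, 45 and 144 far CpGs and 6, 0 and 3 far regions over 25 points apart, which were 5.47%, 1.81% and 3.19% of the CpGs (3.83%, 1.08% and 2.94% of all CpGs) and 1.33%, 0% and 0.45% of the regions then tested (0.713%, 0.113% and 0.356% of all regions). The shares were thus lower too, and the cause was not tested. Requiring 5 CpGs per region left 17, 5 and 11 regions (1.61%, 0.473% and 1.04%, against 1.21%, 0.565% and 0.777% of all regions). Without the 4 mice of low coverage, an alternative chosen after seeing the data, 1593 far CpGs and 27 far regions were over 25 points apart for Aged STD minus Young STD.

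Leaving out each mouse in turn gave far mean differences of -4.32 to -2.72, 0.488 to 2.09 and -2.83 to -1.64 in the same order of comparisons, and 0 calls throughout.

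Same-numbered replicates did not deviate together (17 pairs, correlation -0.0943 to 0.0713). This gave no sign that the numbers pair the mice, but with values this noisy it cannot exclude it. With a replicate block the far mean differences were -2.80, 1.09 and -2.99, the calls stayed at 0, and 2896, 2289 and 2630 far CpGs were over 25 points apart (13.6%, 10.7% and 12.2%, against 11.6%, 9.08% and 11% of all CpGs).

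The depth behind each percent is unknown. At the 1157 far sites measured on both strands, the SD of the difference between strands within a mouse was 21.2 to 33.2 points, which limits what single CpGs can show with 5 to 7 mice. Only 2074 far CpGs were measured in all mice, and they had a lower level than the rest.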
